A study of Mus musculus with 4 samples.

Results

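Proteases of the ADAM and ADAMTS families were followed in CT26, a cultured line of mouse colon carcinoma, on 4 Affymetrix Mouse Gene 2.0 ST arrays. Members were all genes whose platform symbol is Adam or Adamts followed by a number and at most 1 letter, taken from probe sets with a single symbol. This gave 51 genes, 33 Adam and 18 Adamts, of 22180 named genes. Where a gene had several probe sets, the one with the highest 4-array mean stood for it. Treated cells had 5 µM Senexin B for 24 h, an inhibitor of the Mediator kinases CDK8 and CDK19, and were set against cells given the solvent DMSO for 24 h. A line named shCDK8 was set against a line with pLKO.1, a lentiviral vector for hairpin RNAs. All 4 groups share the CT26 background, each has 1 array, and the labels name no hairpin sequence, clone or pool. The study's title ties CDK8 to metalloproteinase genes and to liver metastasis of colon cancer.

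With 1 array per group there was no replicate spread and no test, so each difference below compares 2 arrays on the log2 scale. An expression limit of 5.98, the 40th percentile of all gene values, stood in for background, and a gene counted as above it where its highest array value reached it. By that limit 14272 genes were above, 64.3% of those named. Cdk8 itself stood at 9.07 in shCDK8 and 10.79 in pLKO.1. The pLKO.1 minus DMSO difference is given beside the comparisons as a yardstick, although these controls are not replicates and each enters 1 comparison. Array medians over 41345 probe sets lay between 5.99 and 6.04. Of 5 epithelial markers Krt8, Krt18, Krt20 and Cdh1 were above the limit and Epcam was below it on every array, whereas Vim, Cdh2 and Pdgfrb, markers of mesenchymal cells, were all above it. The leukocyte markers Ptprc, Adgre1 and Cd3e and the germ cell markers Ddx4 and Dazl were below it on every array. The limit is permissive, since Prm1 and Tnp1 of the germ cell list and all 3 endothelial markers reached it on at least 1 array. Their highest values lay between 5.99 and 6.16. Cd68 of the leukocyte list (8.82 to 9.15) and the neuronal marker Rbfox3 (7.55 to 7.78) were clearly above it on every array. The neuronal markers Syt1 and Snap25 were also above it on every array, at 6.34 to 6.89. In such bulk RNA fewer cells carrying a transcript and less transcript per cell cannot be told apart.

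ADAM proteins are membrane-anchored metalloproteinases that release the outer parts of growth factors, cytokines, receptors and adhesion molecules, a step called shedding. ADAMTS enzymes are secreted relatives with thrombospondin repeats. They cut proteoglycans, process procollagens and act on other matrix and plasma proteins. Several ADAM members lack a working active site and serve in adhesion, and many are made in the male germ line. TIMP proteins inhibit parts of both families.

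Of the 51 members 22 were above the limit, 9 Adam and 13 Adamts genes, where 64.3% of all named genes were. Of these 22 genes 16 reached it on all 4 arrays. The 9 catalytic sheddases listed were above it except Adam28. Of 21 measured germ line or epididymal members none was, with values between 2.91 and 5.96. Of the neural or non-catalytic members Adam11 was above and Adam22 and Adam23 were not. Among the proteoglycan-cleaving ADAMTS enzymes 5 of 7 were above, with Adamts5 and Adamts20 below. Adamts14 was above and Adamts3 below among the procollagen enzymes. All 5 enzymes listed for von Willebrand factor, cartilage oligomeric matrix protein (COMP) and fibrillin were above, and of the 4 remaining ADAMTS genes Adamts16 and Adamts17. Just inside the limit by their highest value were Adamts4 (6.10), Adamts15 (6.17) and Adam11 (6.23). Just outside it were Adam3 (5.96), Adam23 (5.92) and Adamts20 (5.74). A stricter limit of 6.25 was also taken, the 95th percentile of the highest values of 1405 olfactory and related receptor genes. It left 19 members, without those 3 just inside.

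**Figure D1:**
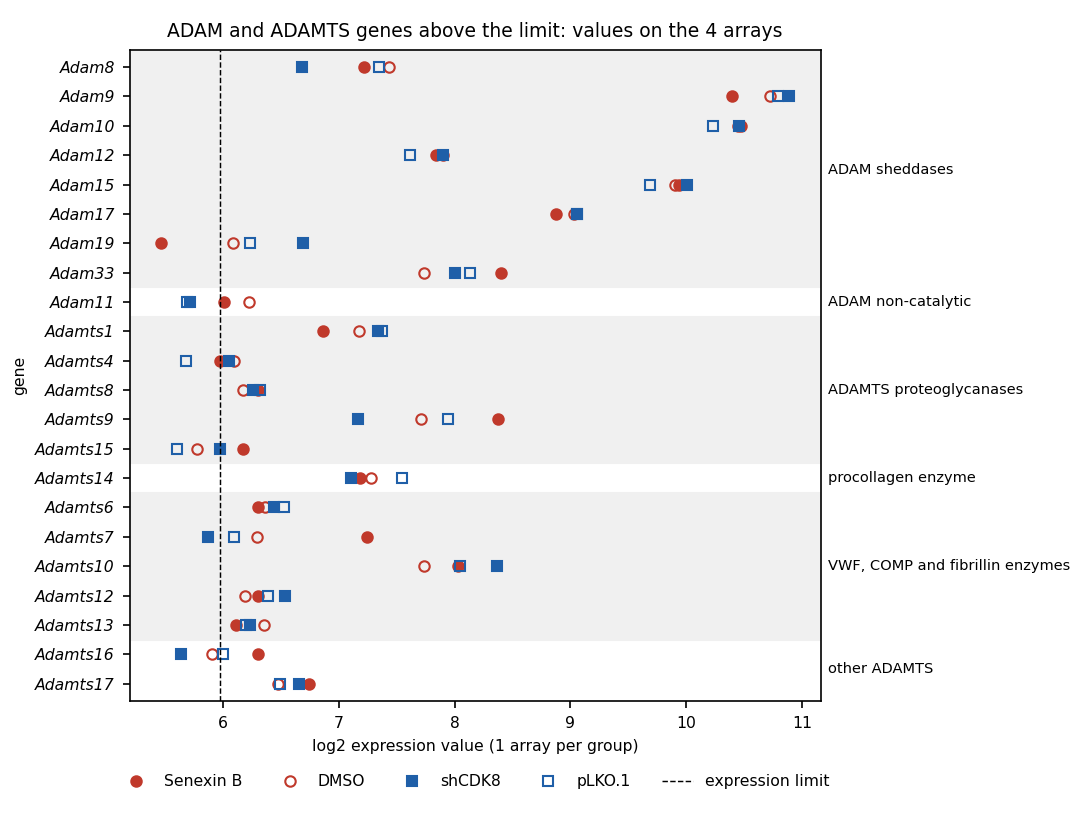
Log2 expression value (x axis) of each of the 22 ADAM and ADAMTS genes above the limit (y axis, grouped by role), with 1 point per array: Senexin B, DMSO, shCDK8 and pLKO.1. The dashed line is the limit of 5.98. Adam19, Adamts7 and Adamts9 are spread most widely, by 1.23, 1.37 and 1.21; values of different genes come from different probes and are not to be compared.

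No member was 2-fold apart in either comparison. For Senexin B minus DMSO 0 of 22 were, where 0.939% of all genes above the limit were. For shCDK8 minus pLKO.1 0 of 22 were, where 0.518% of all genes were. The median difference of the 22 was -0.014 for Senexin B, beside -0.028 over all genes above the limit, and 0.032 for shCDK8, beside 0.0038. At 1.5-fold, 0.58 on the log2 scale, 3 of the 22 were higher with Senexin B (Adamts7, Adam33 and Adamts9) and Adam19 was lower. Over all genes above the limit 2.35% were that much higher and 1.65% that much lower. In shCDK8 Adamts9 and Adam8 were lower by that much and none of the 22 was higher, against 1.85% lower and 1.67% higher over all genes. Between the controls 0 of the 22 members were 1.5-fold apart, and 1.04% of all genes were. The 1.5-fold count was taken up after none was found at 2-fold.

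**Figure D2:**
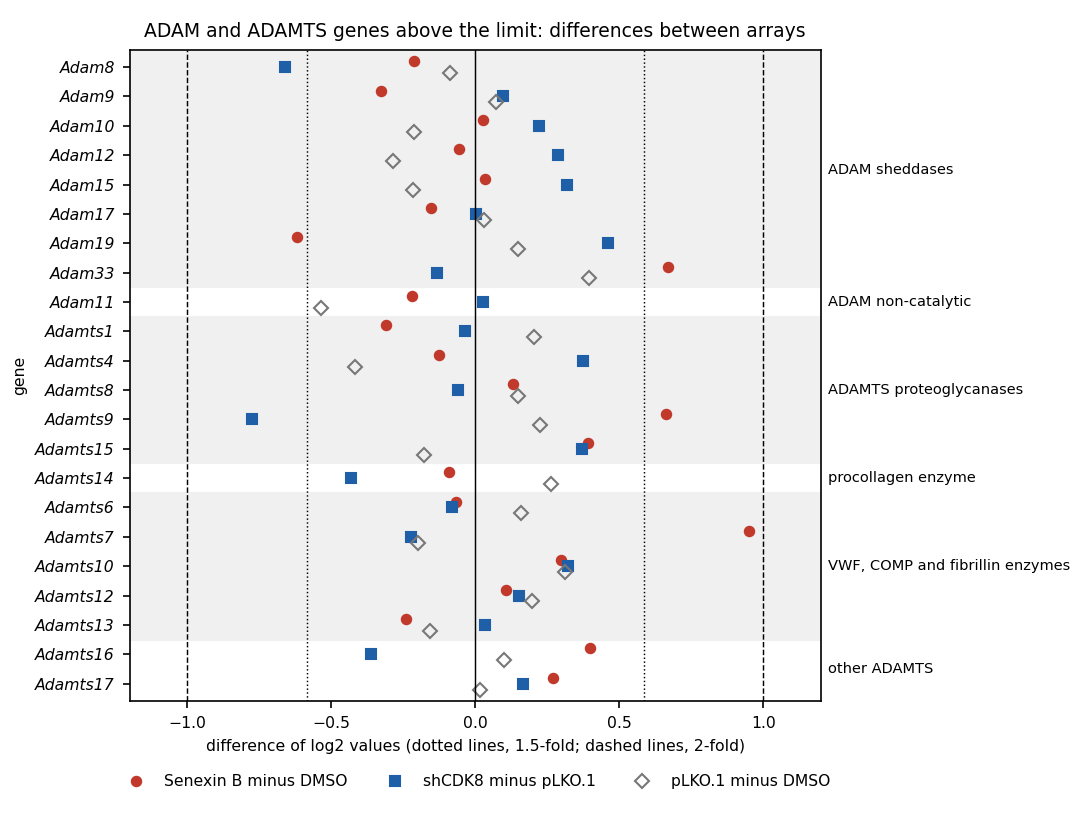
Difference of log2 values (x axis) for the 22 members above the limit (y axis, grouped by role): Senexin B minus DMSO, shCDK8 minus pLKO.1, and pLKO.1 minus DMSO. Dotted lines mark 1.5-fold and dashed lines 2-fold; Adamts7 with Senexin B lies closest to 2-fold, at 0.95.

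Adamts7 (Entrez 108153, chromosome 9), whose product cleaves COMP, was the member furthest apart with Senexin B. It stood at 7.24 with Senexin B and 6.29 with DMSO, and at 5.87 in shCDK8 and 6.09 in pLKO.1. The Senexin B array was thus high, and the other 3 lay within 0.42 of each other around the limit. The difference was 0.95 for Senexin B, or 1.93-fold, and 0.743% of all genes above the limit were at least as far apart upward. Against the pLKO.1 array it was 1.15, past 2-fold, where 0.708% of all genes were 2-fold higher. In shCDK8 minus pLKO.1 the difference was -0.22, or -0.12 with the shCDK8 value raised to the limit. Adamts12, the other COMP-cleaving enzyme, did not follow. It stood at 6.30 with Senexin B and 6.19 with DMSO, and at 6.54 in shCDK8 and 6.39 in pLKO.1.

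Adamts9 (Entrez 101401, chromosome 6), a protease of versican and aggrecan, was the single member 1.5-fold apart in both comparisons, and in opposite directions. The share of all genes that far apart in both was not computed, so how unusual this is stays unknown. It stood at 8.38 with Senexin B and 7.71 with DMSO, and at 7.17 in shCDK8 and 7.94 in pLKO.1. The 2 control arrays lay between the treated and the hairpin array. The difference was 0.66 for Senexin B (1.58-fold higher) and -0.77 for shCDK8 (1.71-fold lower). Of all genes above the limit 1.75% were at least as far up with Senexin B, and 0.771% at least as far down in shCDK8. With the control arrays exchanged it was 0.44 for Senexin B minus pLKO.1 and -0.55 for shCDK8 minus DMSO, both short of 1.5-fold. Between the controls Adamts9 differed by 0.22. Of the 3 mesenchymal markers Pdgfrb was at 1.49 for Senexin B and -1.25 for shCDK8, Vim at -0.01 and 0.06, and Cdh2 at -0.15 and -0.22. Of the epithelial markers above the limit Krt20 was at -0.10 for Senexin B and -1.44 for shCDK8, and Cdh1 at 0.16 and 0.24. Krt8 and Krt18 stayed within 0.15 in both. The part of these markers in the member results was not tested.

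Adam19 (Entrez 11492, chromosome 11), a sheddase of neuregulin, ran the other way. It stood at 5.47 with Senexin B and 6.08 with DMSO, and at 6.70 in shCDK8 and 6.23 in pLKO.1. The Senexin B array was lowest and below the limit, and the shCDK8 array was highest. The difference was -0.62 for Senexin B, and -0.11 with that value raised to the limit, so its size is uncertain. For shCDK8 it was 0.46, and 0.61 against DMSO. A second Adam19 probe set, below the limit on every array, gave 0.25 for Senexin B and -0.15 for shCDK8, each opposite in sign to the first.

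Adam33 (Entrez 110751, chromosome 2), known in humans as an asthma susceptibility gene, stood at 8.40 with Senexin B and 7.73 with DMSO, and at 7.9997 in shCDK8 and 8.13 in pLKO.1. The DMSO array was the low one. The difference of 0.67 for Senexin B was 0.27 against pLKO.1, and the controls themselves differed by 0.40. Adam8 (Entrez 11501, chromosome 7), a sheddase best known from leukocytes, stood at 7.22 with Senexin B and 7.43 with DMSO, and at 6.68 in shCDK8 and 7.35 in pLKO.1. Only the shCDK8 array stood apart from the other 3. The difference in shCDK8 was -0.66 against pLKO.1 (1.58-fold lower) and -0.75 against DMSO. For Senexin B it was -0.21. Of the 22 members above the limit Adam8 alone was at least 1.5-fold apart in shCDK8 against both controls, where 2.07% of all genes were. Below the limit Adam4 was too, at -0.70 and -0.66. Of all genes below the limit 2.09% were 1.5-fold lower against pLKO.1 and 2.07% against DMSO, and the share against both was not computed. With Senexin B Adamts7 and Adam19 were 1.5-fold apart against both, where 2.47% of all genes were. For Adam19 this rests on a value below the limit, and with it raised to the limit the differences were -0.11 from DMSO and -0.26 from pLKO.1, both short of 1.5-fold.

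The starts of Adamts9 and Adam8 are shown, the members above the limit that were 1.5-fold lower in shCDK8. Beside them are those of Adam10 and Adam17, whose 4 values spanned 0.24 and 0.19. Each run holds the 250 bases before the annotated start, 5′ to 3′ on the gene's strand, from RefSeq (GRCm38.p6). Capitals mark GGGCGG (the GC box) and CCAAT (the CCAAT box) on either strand. Adamts9 is at chr6:92943535-92943784, minus strand, and Adam8 at chr7:139992563-139992812, minus strand. Adam10 is at chr9:70678732-70678981, plus strand, and Adam17 at chr12:21373633-21373882, minus strand.
Adamts9: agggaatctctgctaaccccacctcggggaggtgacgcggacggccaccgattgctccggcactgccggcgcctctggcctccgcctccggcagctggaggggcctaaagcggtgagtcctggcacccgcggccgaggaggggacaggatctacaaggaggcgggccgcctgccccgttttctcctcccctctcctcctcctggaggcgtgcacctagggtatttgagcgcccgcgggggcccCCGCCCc
Adam8: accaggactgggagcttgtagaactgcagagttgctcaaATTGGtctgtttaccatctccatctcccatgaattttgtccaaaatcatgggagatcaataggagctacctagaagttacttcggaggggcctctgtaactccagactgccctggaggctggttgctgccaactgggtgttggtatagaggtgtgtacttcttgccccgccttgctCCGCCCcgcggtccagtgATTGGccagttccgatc
Adam10: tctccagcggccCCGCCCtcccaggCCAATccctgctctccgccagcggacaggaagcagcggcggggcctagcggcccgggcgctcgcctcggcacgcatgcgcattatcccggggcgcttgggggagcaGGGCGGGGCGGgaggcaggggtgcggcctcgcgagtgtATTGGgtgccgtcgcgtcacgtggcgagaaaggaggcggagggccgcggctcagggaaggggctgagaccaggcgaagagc
Adam17: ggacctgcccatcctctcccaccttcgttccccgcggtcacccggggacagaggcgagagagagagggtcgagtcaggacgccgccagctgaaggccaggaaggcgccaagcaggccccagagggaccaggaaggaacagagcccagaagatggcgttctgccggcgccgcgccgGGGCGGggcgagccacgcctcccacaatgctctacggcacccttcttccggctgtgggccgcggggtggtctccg

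All 4 runs hold a GC box, which 32.7% of 32851 RefSeq promoters of that length hold, and in Adamts9 it lies at positions -7 to -2 from the start. Adam8 and Adam10 also hold a CCAAT box, found in 33.8% of promoters. GC made up 71.2% of the bases before Adamts9 and 52.8% before Adam8, against 74.0% for Adam10, 70.4% for Adam17 and a median of 52.4% over all promoters. Over the 28 promoters listed for 26 members, 10 held a GC box, 11 a CCAAT box and 4 the TATA box TATAAA (12.4% of all promoters). The letters of the AP-1 motif, TGANTCA, were in 4 (6.75% of all), and those of the TCF/LEF motif, CTTTGNT, in 4 (16.0%). An NF-kappaB motif of 10 letters, 2 of them free, was in 0 of the 28 and in 1.21% of all. All were searched on both strands. Promoters were listed for 11 of the 22 members above the limit, and not for Adamts7 or Adam33. Among those 11 the AP-1 letters were in Adam19 alone, as TGAGTCA at positions -131 to -125 of 1 of its 3 listed starts. A match describes letters only.

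The other sheddases above the limit differed by no more than 0.33 in either comparison. Adam10, which cleaves Notch receptors and the amyloid precursor, stood at 10.47 with Senexin B and 10.44 with DMSO, and at 10.45 in shCDK8 and 10.23 in pLKO.1. Adam17, the TNF-alpha converting enzyme, stood at 8.87 with Senexin B and 9.03 with DMSO, and at 9.06 in both shCDK8 and pLKO.1. Its 4 values spanned 0.19. Adam9 stood at 10.40 with Senexin B and 10.72 with DMSO, and at 10.89 in shCDK8 and 10.79 in pLKO.1, so the Senexin B array was the lowest, by 0.33 from DMSO. Adam15 was at 9.93 with Senexin B and 9.90 with DMSO, and at 10.01 in shCDK8 and 9.69 in pLKO.1. Adam12, a protease of insulin-like growth factor binding proteins, was at 7.84 with Senexin B and 7.90 with DMSO, and at 7.90 in shCDK8 and 7.61 in pLKO.1. For Adam10, Adam12 and Adam15 pLKO.1 was the lowest array, and their shCDK8 differences of 0.22, 0.29 and 0.32 became 0.01, 0.00 and 0.11 against DMSO. Adam11, a catalytically inactive neural member, was at 6.01 with Senexin B and 6.23 with DMSO, and at 5.72 in shCDK8 and 5.69 in pLKO.1, below the limit in both lines.

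Of the remaining proteoglycan-cleaving enzymes Adamts1 stood at 6.86 with Senexin B and 7.17 with DMSO, and at 7.34 in shCDK8 and 7.38 in pLKO.1. Its Senexin B value was the lowest, at -0.31 from DMSO and -0.51 from pLKO.1. Adamts4 was at 5.97 with Senexin B and 6.10 with DMSO, and at 6.06 in shCDK8 and 5.68 in pLKO.1. Adamts8 was at 6.30 with Senexin B and 6.17 with DMSO, and at 6.26 in shCDK8 and 6.32 in pLKO.1. These 2 crowd the limit, and the Adamts8 values spanned 0.15. Adamts15 was at 6.17 with Senexin B and 5.78 with DMSO, and at 5.97 in shCDK8 and 5.60 in pLKO.1, above the limit on the Senexin B array alone. With the other values raised to the limit its differences were 0.19 for Senexin B and 0.00 for shCDK8. The differences of these 4 stayed within 0.40 in both comparisons. Against pLKO.1, however, the Senexin B differences of Adamts15 (0.57) and Adamts1 (-0.51) were larger in size than that of Adamts9 (0.44).

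Adamts14, which trims the amino end of fibrillar procollagen, stood at 7.19 with Senexin B and 7.28 with DMSO, and at 7.11 in shCDK8 and 7.54 in pLKO.1. Its shCDK8 difference was -0.43, and -0.17 against DMSO. A second Adamts14 probe set, also above the limit, gave 0.22 for shCDK8 minus pLKO.1, so the probe sets disagreed in sign. Adamts10, a partner of fibrillin microfibrils, was at 8.03 with Senexin B and 7.74 with DMSO, and at 8.37 in shCDK8 and 8.05 in pLKO.1. DMSO was its lowest array and shCDK8 its highest, 0.63 apart. Adamts6 was at 6.30 with Senexin B and 6.37 with DMSO, and at 6.44 in shCDK8 and 6.53 in pLKO.1. Adamts13, which cleaves von Willebrand factor, was at 6.12 with Senexin B and 6.36 with DMSO, and at 6.23 in shCDK8 and 6.20 in pLKO.1. Neither differed by 0.25 in either comparison. Adamts16 was at 6.30 with Senexin B and 5.90 with DMSO, and at 5.64 in shCDK8 and 6.004 in pLKO.1. Like Adamts9 it had opposite signs, 0.40 for Senexin B and -0.36 for shCDK8, but the second became -0.03 with the shCDK8 value raised to the limit. Adamts17 was at 6.75 with Senexin B and 6.48 with DMSO, and at 6.66 in shCDK8 and 6.50 in pLKO.1.

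Across the 22 members the comparisons, which share no array, ran in opposite directions for 12 genes and in the same direction for 10, where 47.3% of all genes above the limit ran in opposite directions. With values raised to the limit 11 members ran in opposite directions, 9 in the same direction, and Adam11 and Adamts15 had no difference in shCDK8. Pearson's r between the 2 differences over these genes was -0.32, and 0.0078 over all 14272 genes above the limit. Over so few members r leans on those with large differences of opposite sign. Such were Adamts9 (0.66 for Senexin B, -0.77 for shCDK8) and Adam19 (-0.62 and 0.46), and r without them was not computed. It is therefore not a trait of the members as a whole. With values raised to the limit r was -0.22 over the members and 0.015 over all genes. Genes on the same arrays share normalization and are not independent, so these are descriptions.

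**Figure D3:**
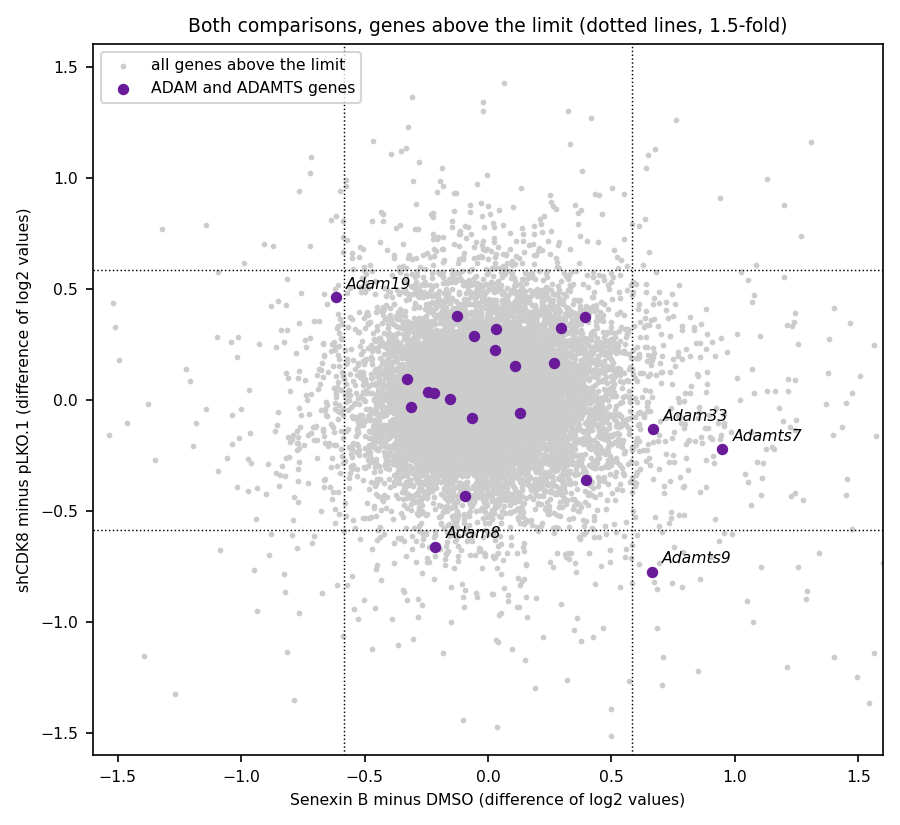
Senexin B minus DMSO (x axis) against shCDK8 minus pLKO.1 (y axis), as differences of log2 values, for all 14272 genes above the limit (grey) and the 22 ADAM and ADAMTS genes (purple). Dotted lines mark 1.5-fold, and 41 genes lie outside the axes. Adamts9 is the single member past the lines in both comparisons, a count given without its share over all genes.

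The 29 members below the limit served as a view of differences where signal is low. In shCDK8 minus pLKO.1, 4 of them were 1.5-fold apart, where 5.36% of all genes below the limit were: Adam26a (0.69), Adam3 (0.60), Adam4 (-0.70) and Adam6b (-0.79). With Senexin B 0 of 29 were, where 3.77% of all such genes were. Adam6a and Adam6b, and Adam26a and Adam26b, are close copies, and their values are uncertain to that extent. In the RefSeq order Adam18, Adam3, Adam5, Adam32 and Adam9 follow one another on chromosome 8, and Adam9 alone of the 5 was above the limit. Adamts1 and Adamts5 are neighbours on chromosome 16, with the first above and the second below. Adamts15 and Adamts8 adjoin on chromosome 9 and were both above it.

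Transcripts of the proteins that mature and guide the sheddases stayed under 1.5-fold, with 1 exception. Of 12 regulators above the limit, among them the proprotein convertase Furin and the iRhom genes Rhbdf1 and Rhbdf2, whose products carry ADAM17 to the surface, 1 was 1.5-fold apart with Senexin B and none in shCDK8. Of all genes above the limit 2.35% were that much higher and 1.65% lower with Senexin B, and 3.52% were that far apart in shCDK8. With Senexin B 8 of the 12 differed by less than 0.3, and Tspan5 (0.40), Tspan10 (0.36) and Tspan14 (-0.32) by more. The one past 1.5-fold was Tspan17, a tetraspanin that binds ADAM10, at 10.59 with Senexin B and 9.65 with DMSO, and at 9.40 in shCDK8 and 9.62 in pLKO.1. The Senexin B array stood above the other 3, by 0.94 from DMSO and 0.97 from pLKO.1. Of the inhibitors Timp3, which blocks ADAM17 and several ADAMTS enzymes, was at 10.86 with Senexin B and 9.09 with DMSO, and at 9.90 in shCDK8 and 8.91 in pLKO.1. It was higher on the Senexin B and shCDK8 arrays than on either control, whereas Timp1, an inhibitor of ADAM10, was lower on both. Timp1 stood at 9.70 with Senexin B and 10.53 with DMSO, and at 9.64 in shCDK8 and 10.43 in pLKO.1. The inhibitor Reck was at 7.27 with Senexin B and 7.02 with DMSO, and at 7.42 in shCDK8 and 6.99 in pLKO.1. Timp2 differed by 0.16 for Senexin B and -0.07 for shCDK8. Of these 4 inhibitors above the limit 1 was 1.5-fold higher and 1 lower in each comparison. Over all genes 2.35% were that much higher and 1.65% lower with Senexin B, and 1.67% higher and 1.85% lower in shCDK8. The ADAMTS-like genes, which encode relatives without a protease domain, numbered 6 above the limit, and none was 1.5-fold apart in either comparison.

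Ligands of the EGF receptor family, which ADAM10 and ADAM17 shed, included larger differences with Senexin B. Of 6 listed ligands and receptors above the limit 3 were 1.5-fold lower with Senexin B, 2 of them 2-fold, and none was higher, where 1.65% of all genes were 1.5-fold lower and 0.252% 2-fold lower. The list median was -0.65 beside -0.028 over all genes, but -0.30 against pLKO.1. Against that control 2 of the 6 were 1.5-fold lower, where 1.86% of all genes above the limit were. One of the 6, Epgn, was below the limit on both the Senexin B (5.54) and the DMSO (5.87) array. The ligand gene Areg, also listed, was not measured by a probe set with a single symbol and is not among the 6. Betacellulin (Btc) was at 6.37 with Senexin B and 7.75 with DMSO, and at 8.04 in shCDK8 and 8.06 in pLKO.1, a difference of -1.38 or 2.60-fold lower. Only the Senexin B array was low. The TGF-alpha gene Tgfa was at 7.23 with Senexin B and 8.29 with DMSO, and at 7.55 in shCDK8 and 7.81 in pLKO.1. Its difference of -1.06 became -0.58 against pLKO.1, and the controls differed by -0.48. Hbegf, the heparin-binding ligand, was at 9.13 with Senexin B and 10.10 with DMSO, and at 10.02 in shCDK8 and 10.28 in pLKO.1, with differences of -0.97 from DMSO and -1.15 from pLKO.1. Epiregulin (Ereg) was 0.44 higher. In shCDK8 none of the 6 was 1.5-fold apart, where 3.52% of all genes above the limit were, and the list median was -0.020. Egfr was below the limit on all arrays, at 5.87 to 5.92, and Erbb2 was above it.

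Of 23 other shed membrane proteins above the limit 2 were 1.5-fold apart with Senexin B, Tnfrsf1b, a TNF receptor gene (0.59), and Jag1, a Notch ligand (-0.86), where 2.35% of all genes were that much higher and 1.65% lower. For Jag1 the controls differed by -0.57, and against pLKO.1 it was at -0.29. Its Senexin B value of 5.84 lay below the limit, so the size of its difference is uncertain. In shCDK8 Notch2 was 1.30 higher and Il6ra, the interleukin-6 receptor gene, was at -0.66, where 3.52% of all genes were 1.5-fold apart. Against DMSO Notch2 was at 1.43 and Il6ra at -0.55, short of 1.5-fold. Matrix substrates of ADAMTS enzymes numbered 16 above the limit. With Senexin B 3 were 1.5-fold higher and none lower, Bgn (2.41), Dcn (2.29) and Thbs1 (0.74), where 2.35% of all genes were higher and 1.65% lower. The list median was 0.27, beside -0.028 over all genes. Vcan, which encodes versican, was at 6.90 with Senexin B and 6.39 with DMSO, and at 6.38 in shCDK8 and 6.36 in pLKO.1. The Senexin B array was the high one here, as for Adamts7. In shCDK8 Bgn (-0.71), Dcn (-0.82) and Col3a1 (-1.27) were lower by 1.5-fold or more, none was higher, and the list median was -0.11, where 1.85% of all genes were lower. Against DMSO Col3a1 (-1.29) was 1.5-fold lower, Bgn (-0.53) and Dcn (-0.24) were not, and Fn1 (0.81) was higher. Over all genes above the limit 2.28% were 1.5-fold lower against DMSO and 2.21% higher. Between the controls Dcn and Fn1 each differed by 0.58.

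**Figure D4:**
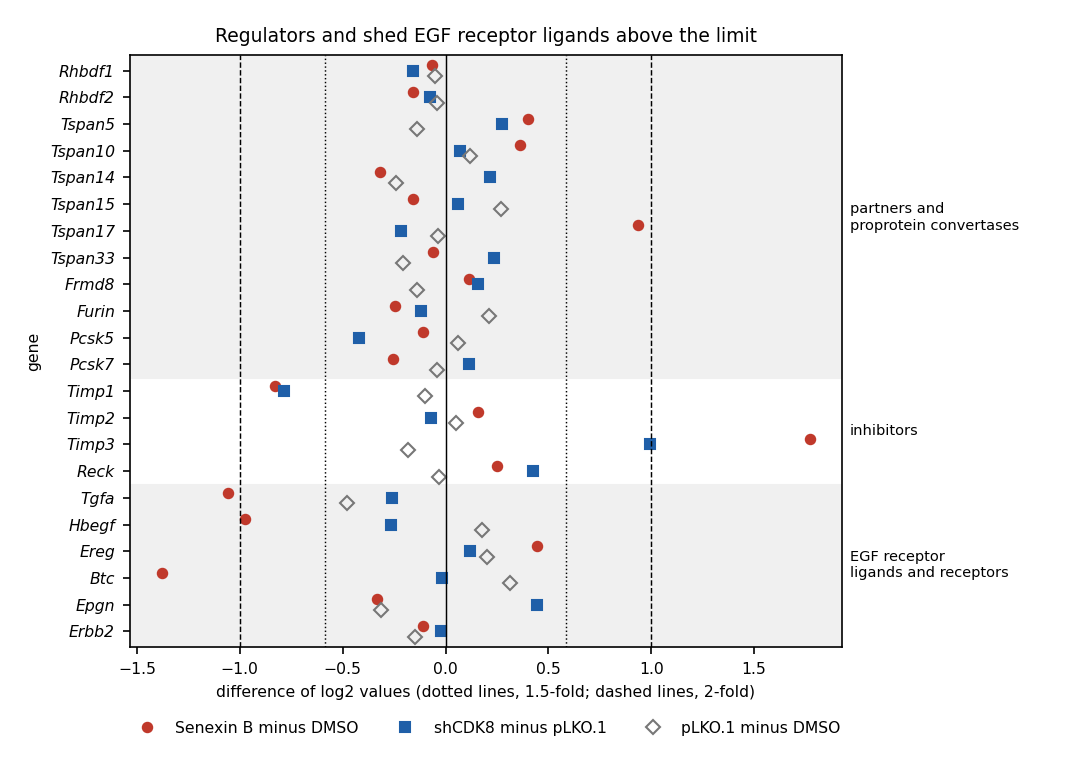
Difference of log2 values (x axis) for genes above the limit that mature, guide or inhibit the proteases and for the EGF receptor ligands and receptors (y axis): Senexin B minus DMSO, shCDK8 minus pLKO.1, and pLKO.1 minus DMSO. Timp3 lies highest with Senexin B, at 1.77, and Btc lowest, at -1.38; in shCDK8 the EGF receptor ligands and receptors stay within the dotted lines of 1.5-fold.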

How the data were processed

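RNA from 4 CT26 cultures was labelled with biotin, 1 array each, per the labels' protocols. The authors deposited log2 values, 1 per probe set, made with RMA and Affymetrix Expression Console per the submitters' processing notes. The sources used here give no versions, settings or genome build. RMA equalizes the arrays and compresses differences near background. Of 41345 probe sets 23521 had 1 gene symbol in the platform annotation, 1814 several and 16010 none, and only the first were used. All 51 members matched a RefSeq gene (GRCm38.p6) by Entrez ID; 4 had a second probe set.

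Differences were computed with Python 3.11.15 and pandas 2.3.3 and tested on simulated data. With 1 array per group no test was made, and the number of arrays limits the precision. The members, lists and alternatives were chosen with earlier results of these data known. The text names all members above the limit, and gives those below it as counts and ranges, some by name. From the companion lists it names up to 6 genes per list at least 1.5-fold apart. Other companion genes were named after their values were seen. The alternatives were other limits, the mean of probe sets, a lowess trend removed (span 0.3), a second quantile normalization, the other control array, values raised to the limit, and 1.5-fold and 3-fold thresholds. Planned protein features were not analysed here.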

Additional observations from a re-analysis of the deposited data

How the results depend on the processing

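No member was 2-fold apart in either comparison under the 2 other limits, no limit, the mean of probe sets, a second quantile normalization, a removed lowess trend, values raised to the limit or a 3-fold threshold. With the other control array Adamts7 alone of the 22 above the limit was 2-fold apart with Senexin B, a count of 1, and still 0 in shCDK8. Below the limit Adam6b was 2-fold apart with Senexin B too, at -1.12, where 0.139% of all genes below the limit were 2-fold lower. A 1.5-fold threshold gave 4 and 2. The members above the limit numbered 12 with the limit at the 60th percentile and 19 to 22 otherwise. The median for Senexin B was 0.11 with the other control array and otherwise stayed between -0.014 and 0.069; that for shCDK8 stayed between -0.016 and 0.0555. Differences of single members moved by 0.1 or more in 34 of 44 cases with the other control array, in 6 with values raised to the limit, in 4 with the mean of probe sets and in 0 with either rescaling. The 1.5-fold counts and those against both controls were chosen after seeing the data. With the mean of probe sets or values raised to the limit Adam19 was no longer 1.5-fold apart, and with the first Adam3 entered in shCDK8. The 1.5-fold count in shCDK8 was 6 with no limit. No paired analysis was possible because each group holds 1 array.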

Other observations

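Adam34 shares both of its probe sets with another symbol and so was not counted as a member. One stood at 2.93 with Senexin B and 3.01 with DMSO, and at 3.66 in shCDK8 and 2.91 in pLKO.1. The other stood at 3.82 with Senexin B and 4.47 with DMSO, and at 4.47 in shCDK8 and 4.13 in pLKO.1. All 8 values were below the limit of 5.98, as were those of the other germ line members. Adamts2, a procollagen enzyme, was not analysed here. Of the members with a second probe set, Adam15 gave 0.14 for Senexin B and 0.10 for shCDK8 on the second, beside 0.03 and 0.32 on the first. Adamts8 gave 0.22 and 0.01 on the second, which was below the limit on every array, beside 0.13 and -0.06 on the first.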
